A study of Caenorhabditis elegans with 6 samples.

Results

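Heterotrimeric G proteins carry signals from receptors of the G protein-coupled class into the cell, and RGS proteins (regulators of G protein signalling) switch them off again. The genes described here were taken by name, as all counted genes called gpa, gpb, gpc or rgs with a number, together with goa-1, egl-30, gsa-1, egl-10 and eat-16. They number 39 of 22416 genes with counts: 21 alpha subunits, 4 beta and gamma subunits and 14 RGS genes. The rule uses names and no measured value. The alpha subunit odr-3, which the naming rule misses, is given with the other genes of the pathway.

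RNA came from pooled whole Caenorhabditis elegans, and both treatments used strain CL2006. It carries the plasmid pCL12, in which the promoter of the myosin gene unc-54 drives a human amyloid beta peptide in body wall muscle, and the marker plasmid pRF4. The worms ate HT115 bacteria with an empty vector, or HT115 bacteria that express RNAi directed at the 3'UTR of the receptor gene gtr-1, as their parents had. They were kept at 20 °C and collected on day 6 of adulthood. There were 3 libraries per treatment, 1 in each of the labelled batches 2, 3 and 4, and the comparison was made within batch pairs.

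A G protein is a complex of an alpha, a beta and a gamma subunit. An active receptor loads the alpha subunit with GTP, alpha and beta-gamma part and act on enzymes and channels, and the signal ends when alpha hydrolyses its GTP, a step that RGS proteins speed up. In worm neurons the Go-type subunit GOA-1 holds back transmitter release and the Gq-type subunit EGL-30 promotes it, with the RGS protein EGL-10 acting on the former and EAT-16 on the latter. Most other numbered gpa genes are nematode-specific, and reporter studies place many of them in chemosensory neurons.

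Libraries held 43067539 to 59812227 counts in total. The target gtr-1 itself, with 32, 16 and 12 counts on the empty vector in batches 2, 3 and 4 and 38, 26 and 11 with the gtr-1 RNAi label, did not separate the treatments (log2 fold change 0.13 ± 0.30, SE, edgeR adjusted p = 0.886). The libraries of the RNAi group are called gtr-1-labelled here, and every direction given depends on that label. Markers of neurons, muscle, pharynx, intestine, hypodermis, germline and sperm were detected, with 0 at a count of 0 among those that had counts. The listed intestine marker opt-2 had no counts under that name and was left out. The batch 2 libraries stood apart from the rest in both treatments: summed germline markers lay at 4773 and 5291 CPM there and at 7388 to 7952 CPM in batches 3 and 4. CPM are counts scaled to the TMM-adjusted library size and a fixed total. Nothing in the labels says how separate the batches of worms were. The p-values measure the spread left between these libraries after batch and treatment are fitted.

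Set side by side per length, a few genes stood far above the rest. Levels per length are given as RPKM, the CPM per kilobase of annotated exon. On the empty vector the beta subunit gene gpb-1 lay at 148 ± 5.02 RPKM, goa-1 at 118 ± 7.85 and the gamma subunit gene gpc-2 at 105.5 ± 7.12 (SD, n = 3). The next were egl-30 at 46.8 ± 2.099 RPKM and gpa-16 at 37.2 ± 6.48 RPKM. These 5 genes were the highest 5 in 6 of 6 libraries, with gpb-1 first each time, while goa-1 stood above gpc-2 in 5 of 6 and their spreads overlapped. Together goa-1, egl-30 and gpa-16 made up 84.5% to 90.1% of the summed RPKM of the 21 alpha subunits. GPA-16 acts beside GOA-1 in positioning the spindle of the early embryo, and the Gs-type subunit gene gsa-1, whose product activates adenylyl cyclase, lay lower at 9.22 ± 1.86 RPKM.

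The other numbered gpa genes were measured at low levels. Of all 18 numbered gpa genes, gpa-16 included, 13 had a mean under 1 RPKM on the empty vector. These means ran from 0.112 to 0.794 RPKM, with counts from 1 to 96 in a library. These 13 genes made up 1.80% to 3.23% of the summed alpha RPKM. Above them stood gpa-17 at 4.79 ± 1.59 RPKM, gpa-7, which is expressed in neurons and muscle, at 4.31 ± 0.758 and the G12-type gene gpa-12 at 2.79 ± 0.495 (SD, n = 3). gpa-4 was just above 1, at 1.03 ± 0.0999 RPKM (SD, n = 3). In whole-worm RNA, fewer cells of a type and less RNA per cell cannot be told apart.

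Among the RGS genes the highest levels on the empty vector were those of rgs-9 at 19.8 ± 4.70 RPKM, rgs-11 at 17.2 ± 3.08, rgs-7 at 15.8 ± 2.65 and rgs-5 at 12.9 ± 1.56 (SD, n = 3), neighbours in this order whose spreads overlapped. RGS-7 is known from the asymmetric division of the early embryo. The best-studied neuronal regulators lay below, eat-16 at 7.52 ± 1.76 RPKM and egl-10 at 6.41 ± 0.754 RPKM. The lowest with counts was rgs-3, a regulator in sensory neurons, at 0.498 ± 0.299 RPKM. The genes rgs-8.1 and rgs-8.2 had 0 counts in 6 of 6 libraries, where 3 counts, the limit that a count of 0 allows, would be at most 0.0729 CPM (counting error only). This pair lies 7447 bases apart on chromosome X, at 1952479 to 1953560 and 1943950 to 1945031 in WBcel235, and both have 690 bases of exon. The Ensembl annotation gives both the symbol rgs-8.1, and whether reads shared by the pair were counted was not tested, so their 0 is uncertain.

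**Figure D1:**
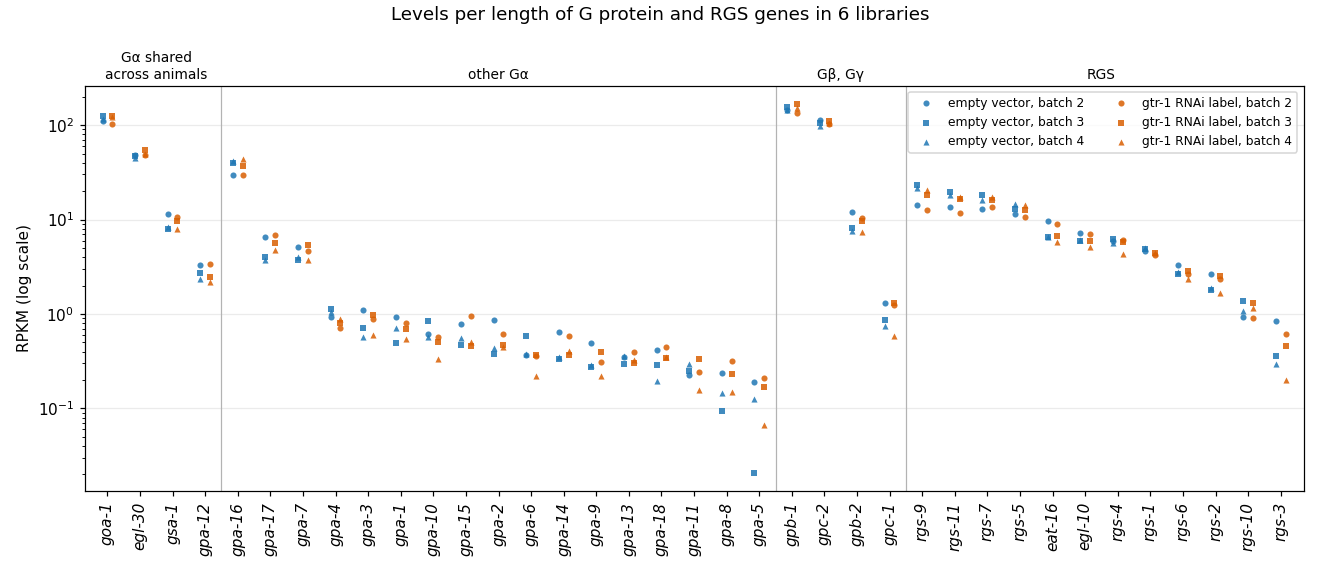
Level per length (RPKM, log axis) of the 37 members with counts in each of 6 libraries, with colours for treatment and marker shapes for batch. The genes gpb-1, goa-1, gpc-2, egl-30 and gpa-16 lie highest, and 13 numbered gpa genes have a mean under 1 RPKM on the empty vector.

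The first comparison asked whether any of these genes differed between the gtr-1-labelled libraries and the empty vector. Counts allowed 36 of the 39 to be tested; gpa-5, with 1 to 13 counts, was left out by the filter on low counts, as were rgs-8.1 and rgs-8.2. None of the 36 passed an adjusted p of 0.05 in edgeR's quasi-likelihood test with batch as a block, 0 up and 0 down. Of the 15519 tested genes, 0.0902% were higher and 0% lower. By the unadjusted p the members numbered 0 as well, against 10.7% of all tested genes (4.99% up and 5.68% down), and DESeq2 called 0 at either threshold. The smallest edgeR adjusted p of a member was 0.470. Their median log2 fold change was -0.018, beside -0.029 over all tested genes, and 15 of the 36 lay above 0 (41.7%; 41.6% of all tested genes did).

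What the counts allow to be said about size differs between the genes. Of the 36, 17 had a 95% interval of the log2 fold change inside -0.5 to 0.5, 7 of them inside -0.25 to 0.25, and 31 inside -1 to 1. The 16 members with a mean under 100 counts had standard errors of 0.19 to 0.39 on the log2 scale, and the 20 others of 0.045 to 0.19. A change as large as those intervals cannot be told from 0 in these libraries.

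The alpha subunits shared across animals were close in the groups. In batches 2, 3 and 4, goa-1 was at 224, 255 and 236 CPM on the empty vector and at 208, 253 and 248 CPM in the gtr-1-labelled libraries. The treatments overlapped, and its log2 fold change was -0.014 ± 0.045 (SE, 95% interval -0.13 to 0.099, edgeR adjusted p = 0.919). For egl-30 the levels were 191.5, 185 and 175 CPM on the empty vector and 188, 213 and 195 CPM in the gtr-1-labelled libraries. They overlapped as well, with the label lower in batch 2 and higher in batches 3 and 4, and the fitted change was 0.11 ± 0.054 (log2, SE, edgeR adjusted p = 0.529). Without the batch 2 pair, where 1165 of all genes passed, egl-30 was the 1 member that did, at 0.18 (edgeR adjusted p = 0.0460, on 2 pairs); without only the empty vector or the gtr-1 RNAi library of batch 2 it did not (0.0597 and 0.0589), and its adjusted p ran up to 1.00 over the alternatives.

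The ratio of goa-1 to egl-30 counts, which needs no scaling of libraries and was chosen after their values were seen, was 1.17, 1.38 and 1.35 on the empty vector and 1.11, 1.19 and 1.27 in the gtr-1-labelled libraries. It was lower with the label in 3 of 3 pairs, with an exact two-sided permutation p of 0.25, the smallest that 3 pairs allow. The treatments overlapped in this ratio. Of other ratios computed in the same way, egl-10 to eat-16 was lower with the label in 1 of 3 pairs and rgs-9 to rgs-11 in 2 of 3.

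The remaining shared alpha subunits, gsa-1 and gpa-12, also overlapped between treatments. gsa-1 was at 18.6, 13.05 and 13.7 CPM on the empty vector and 17.7, 15.7 and 13.1 CPM with the gtr-1 RNAi label, in batch order, with a fold change of 0.040 ± 0.10 (log2, SE, edgeR adjusted p = 0.899). gpa-12 was at 4.41, 3.65 and 3.09 CPM against 4.55, 3.29 and 2.91 CPM, with a fold change of -0.062 ± 0.15 (log2, SE, edgeR adjusted p = 0.891). In both genes the batch 2 libraries were the highest of either treatment.

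Beta and gamma subunit genes had fitted log2 fold changes from 0.0038 to 0.076. gpb-1, which encodes the beta subunit shared by most alpha subunits, was at 359, 379 and 356 CPM on the empty vector and 330.4, 411 and 371 CPM with the gtr-1 RNAi label (log2 fold change 0.019 ± 0.056, SE, edgeR adjusted p = 0.916). gpb-2, the beta-5 type that pairs with EGL-10 and EAT-16, was at 17.3, 11.8 and 10.9 CPM against 15.03, 14.04 and 10.7 CPM (0.0038 ± 0.12, SE, edgeR adjusted p = 0.994). In both genes the label was lower than the empty vector in batch 2 and higher in batch 3.

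The gamma subunit gene gpc-2 was at 41.1, 38.6 and 35.9 CPM on the empty vector and 37.5, 40.2 and 38.8 CPM with the label (log2 fold change 0.014 ± 0.066, SE, edgeR adjusted p = 0.950). gpc-1, a gamma subunit gene of sensory neurons, had 61, 30 and 30 counts against 57, 62 and 26 (0.076 ± 0.29, SE, edgeR adjusted p = 0.938). Its batch 3 and batch 4 pairs pointed in opposite directions, at 0.58 and -0.31, and its 95% interval ran from -0.67 to 0.82.

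Among the other alpha subunits, gpa-17, gpa-18 and gpa-8 were higher with the gtr-1 RNAi label in 3 of 3 pairs and gpa-4, gpa-10 and gpa-6 lower in 3 of 3, all short of the threshold. gpa-17 was at 8.79, 5.37 and 4.92 CPM on the empty vector and 9.20, 7.49 and 6.26 CPM with the label, so the treatments overlapped, with the pair differences at 0.064, 0.48 and 0.34 (log2 fold change 0.29 ± 0.14, SE, edgeR adjusted p = 0.522). gpa-8, studied in oxygen-sensing neurons, rested on 17, 5 and 9 counts against 22, 17 and 10 (0.54 ± 0.39, SE, edgeR adjusted p = 0.641). gpa-18 rested on 25, 13 and 10 counts against 26, 21 and 20 (0.37 ± 0.32, SE, edgeR adjusted p = 0.699).

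Of the lower ones, gpa-4, expressed in chemosensory neurons, was at 1.77, 2.14 and 2.02 CPM on the empty vector and 1.356, 1.52 and 1.68 CPM with the label, where no labelled library reached the lowest of the empty vector (log2 fold change -0.38 ± 0.19, SE, edgeR adjusted p = 0.543). gpa-10 had 43, 44 and 35 counts against 39, 36 and 22 (-0.54 ± 0.28, SE, edgeR adjusted p = 0.558). gpa-6 had 32, 38 and 28 counts against 30, 32 and 18 (-0.50 ± 0.30, SE, edgeR adjusted p = 0.588). After scaling to the library, the treatments did not overlap in these 3 genes and in rgs-1, which makes 4 of 36 members, where 5.99% of all tested genes did not overlap. Those members were picked out by their values, and none passed the test.

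gpa-16, the most abundant of the numbered gpa genes, was at 77.5, 103 and 109 CPM on the empty vector and 77.4, 95.5 and 113 CPM with the label, an overlap with a narrow interval (log2 fold change -0.022 ± 0.045, SE, 95% interval -0.14 to 0.092, edgeR adjusted p = 0.867). gpa-7 was at 8.01, 5.76 and 6.29 CPM against 7.26, 8.31 and 5.76 CPM (0.085 ± 0.18, SE, edgeR adjusted p = 0.874). The remaining tested gpa genes, gpa-1, gpa-2, gpa-3, gpa-9, gpa-11, gpa-13, gpa-14 and gpa-15, lay between -0.19 and 0.057 on the log2 scale.

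RGS genes leaned to the lower side, with a median log2 fold change of -0.11 and 1 of the 12 tested, rgs-2, above 0, beside 41.6% of all tested genes, and none passed. The count above 0 was 3 without the filter on low counts, 3 at a minimum count of 50 and 0 with library totals alone. Markers also differed in median between treatments: body wall muscle -0.21 (1 of 9 above 0), sperm -0.52 (2 of 8), germline -0.037 (0 of 7), neurons -0.032 (5 of 16), hypodermis 0.17 (3 of 5), intestine 0.25 (7 of 7) and pharynx 0.43 (5 of 5). The 1 muscle marker above 0 was unc-54 (0.14), whose promoter drives the transgene of this strain. The hypodermis median was the value of rol-6 (0.17). Whether the plasmids of the strain add to the counts of either gene was not tested. At an unadjusted p under 0.05, 3 intestine markers and 1 hypodermis marker were higher and 1 neuron and 1 germline marker lower. Their part in the RGS values was not tested.

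rgs-9 was at 14.5, 23.3 and 21.7 CPM on the empty vector and 12.5, 18.4 and 20.3 CPM with the gtr-1 RNAi label (log2 fold change -0.21 ± 0.084, SE, edgeR adjusted p = 0.470). rgs-11 was at 15.1, 21.6 and 20.1 CPM against 12.9, 18.03 and 18.9 CPM (-0.20 ± 0.080, SE, edgeR adjusted p = 0.480). Both genes were lower with the label in 3 of 3 pairs, the treatments overlapped, and batch 2 was low in either treatment. The ratio of rgs-9 to rgs-11 counts, chosen after their values were seen, ran from 0.954 to 1.08 over the 6 libraries. Both lie on chromosome X, at 1915258 to 1917162 and 14964553 to 14965976.

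rgs-1, which like rgs-2 restrains GOA-1 signalling in egg laying, was at 6.92, 7.34 and 7.51 CPM on the empty vector and 6.33, 6.58 and 6.70 CPM with the label (log2 fold change -0.15 ± 0.11, SE, edgeR adjusted p = 0.656). egl-10 was at 32.8, 26.5 and 27.5 CPM against 31.6, 27.03 and 23.2 CPM (-0.087 ± 0.076, SE, edgeR adjusted p = 0.696). eat-16 was at 23.0, 15.8 and 15.6 CPM against 21.5, 16.03 and 13.9 CPM (-0.078 ± 0.080, SE, edgeR adjusted p = 0.739). For the last 2 genes the treatments overlapped and the batch 3 pair pointed up, at 0.032 and 0.023. The remaining tested RGS genes, rgs-2, rgs-3, rgs-4, rgs-5, rgs-6, rgs-7 and rgs-10, lay between -0.21 and 0.028.

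**Figure D2:**
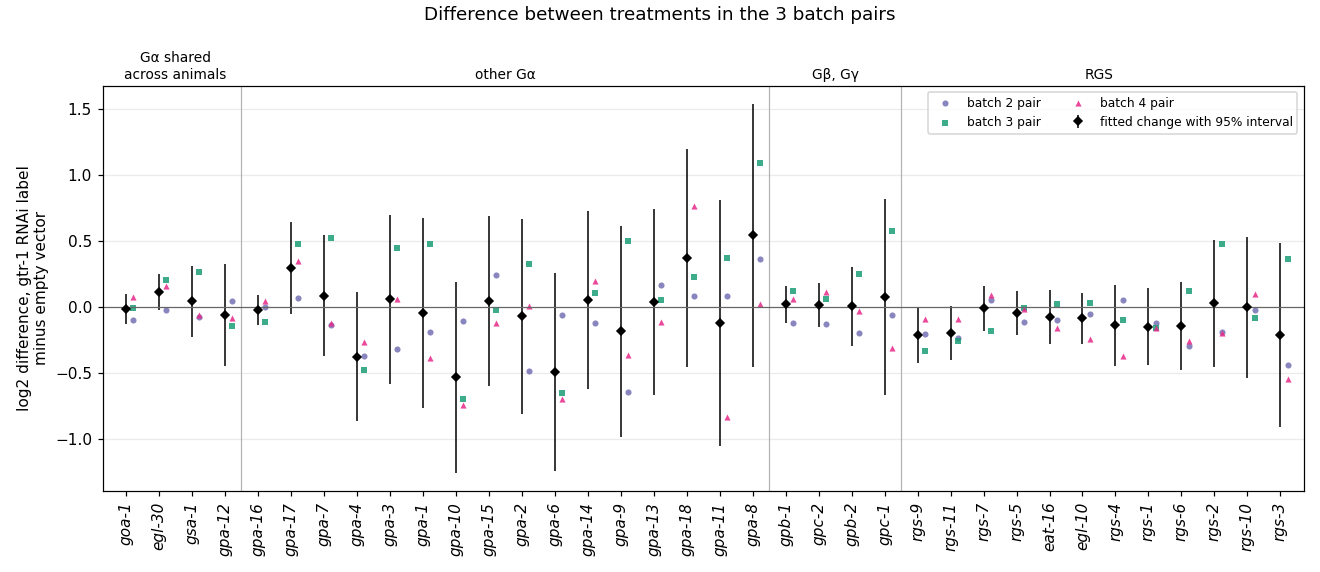
Log2 difference between the gtr-1-labelled libraries and the empty vector for the 36 tested members: black diamonds are the edgeR fold change with its 95% interval, coloured points the 3 batch pairs. The interval of each of the 36 members includes 0, and the widest belong to low-count gpa genes such as gpa-8.

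By pair, the members did not move as a block. The median log2 difference of the 36 by batch (2, 3, 4) was -0.10, 0.084 and -0.091, beside -0.065, 0.0031 and -0.020 over all tested genes. Neuron markers had medians of -0.17, 0.26 and -0.17 in the same pairs, and the other alpha subunits of -0.083, 0.27 and -0.12. Their part in the pair differences was not tested. A common direction in 3 of 3 pairs was seen in 10 members, that is 27.8%, beside 36.1% of all tested genes. Of the members 3 were higher each time and 7 lower, beside 13.5% and 22.6% of all tested genes.

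A list of 73 other genes of the pathway, taken by function (receptors for transmitters, effectors, kinases, guanine nucleotide cycle helpers and sensory channels), was read in the same fit. All 73 were tested, 0 passed at an adjusted p under 0.05, and 2, or 2.74%, were lower at an unadjusted p under 0.05, beside 5.68% of all tested genes. Both are receptors for amines, and other amine receptors of the list had fitted changes on either side of 0. octr-1, an octopamine receptor gene, was at 3.75, 4.59 and 4.80 CPM on the empty vector and 2.95, 2.82 and 3.50 CPM with the label (log2 fold change -0.50 ± 0.16, SE, edgeR adjusted p = 0.395). ser-1, a serotonin receptor gene, was at 2.57, 2.87 and 2.15 CPM against 2.099, 1.82 and 1.41 CPM (-0.52 ± 0.19, SE, edgeR adjusted p = 0.442). In both genes every labelled library lay below every empty vector library. Of the 73 genes, 8.22% did not overlap between treatments, beside 5.99% of all tested genes. The number lower at an unadjusted p under 0.05 was 0 without the batch block, without the batch 3 pair and in DESeq2. It was 2 without a filter, at a minimum count of 50, with DESeq2 size factors or without the batch 2 pair, and 3 with library totals.

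Next in the order of p, the cyclic nucleotide-gated channel subunit gene tax-2 was at -0.63 ± 0.29 on 12 to 36 counts and the kinase gene unc-43, the worm CaMKII, at -0.087 ± 0.041 (log2 fold change, SE). On the higher side, itr-1, the receptor for inositol trisphosphate downstream of EGL-30, was at 0.18 ± 0.071, the adenylyl cyclase gene acy-2 at 0.53 ± 0.23, the phospholipase C gene plc-2 at 0.23 ± 0.12 and the glutamate receptor gene mgl-3 at 0.41 ± 0.24 (log2 fold change, SE). Their edgeR adjusted p ran from 0.479 to 0.582. odr-3, the alpha subunit of olfactory neurons, was at 2.79, 1.63 and 1.28 CPM against 1.82, 2.22 and 1.16 CPM, with overlap (-0.11 ± 0.27, SE, edgeR adjusted p = 0.888).

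The other source of variation in the design was the batch, and here some of the genes did differ. In the same fit, a test of the 3 batches together called 9 of 36 members, 25.0%, at an edgeR adjusted p under 0.05, beside 43.3% of all tested genes, and 12 at an unadjusted p under 0.05, beside 54.3%. Of the 9, 6 were lower in batch 2 than in batches 3 and 4 (goa-1, gpa-16, rgs-5, rgs-7, rgs-9 and rgs-11) and 3 were higher (gpa-17, eat-16 and rgs-3), where 25% and 18.3% of all tested genes were called in these directions. The 9 kept these directions with DESeq2 size factors and with library totals alone, although goa-1 came to -0.0070 with totals. The median log2 difference of batch 2 from batches 3 and 4 over all tested genes was 0.15 with TMM, 0.073 with DESeq2 size factors and 0.34 with totals, and 20 of 36 members lay above it under each of these scalings.

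The lower genes included the embryonic spindle gene gpa-16 and 4 of the best-expressed RGS genes. The adjusted p printed beside each difference is that of the 3 batches together. Batch 2 alone against the others was not tested. rgs-9 was at 14.5 and 12.5 CPM in batch 2 and at 18.4 to 23.3 CPM in the other 4 libraries, a log2 difference of -0.63 (edgeR adjusted p = 0.0120). gpa-16 was at 77.5 and 77.4 CPM in batch 2 and at 95.5 to 113 CPM in the others, a log2 difference of -0.44 (edgeR adjusted p = 0.00523). rgs-11 was at 15.1 and 12.9 CPM against 18.03 to 21.6 CPM, a difference of -0.49 (edgeR adjusted p = 0.0212). In each of these 3 genes both batch 2 libraries lay below the other 4.

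On the empty vector in batches 2, 3 and 4, rgs-7 was at 49.6, 69.7 and 61.9 CPM, and in the gtr-1-labelled libraries at 51.5, 61.4 and 65.9 CPM, with batch 2 at -0.35 (log2, edgeR adjusted p = 0.0300). rgs-5 was at 21.3, 23.9 and 27.1 CPM and at 19.7, 23.8 and 26.9 CPM, with batch 2 at -0.31 (log2, edgeR adjusted p = 0.0310). For goa-1, given above by library, batch 2 was at -0.20 (log2, edgeR adjusted p = 0.0433). These adjusted p-values too are of the 3 batches together. Again both batch 2 libraries were below the other 4 in each gene. The germline markers moved with these 6 genes: 7 of 7 were lower in both batch 2 libraries than in the others, with a median of -0.62. Their part in the result was not tested.

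Of the genes higher in batch 2, rgs-3 was at 2.33 ± 0.513, 1.31 ± 0.241 and 0.791 ± 0.220 CPM in batches 2, 3 and 4. Each SD here is over the n = 2 libraries of a batch, 1 per treatment, so it holds any treatment difference. Batch 2 was higher by 1.16 on the log2 scale (edgeR adjusted p = 0.0363). The adjusted p of this gene and the next 2 is that of the 3 batches together. eat-16 was at 22.3 ± 1.06, 15.9 ± 0.177 and 14.7 ± 1.16 CPM, 0.54 higher (edgeR adjusted p = 0.0140), and gpa-17 at 8.99 ± 0.285, 6.43 ± 1.495 and 5.59 ± 0.945 CPM, 0.60 higher (edgeR adjusted p = 0.0449). The 16 tested alpha subunits outside the shared group had a median of 0.46, with gpa-17 called higher and gpa-16 called lower among them. Neuron markers had a median of 0.42, with 7 of 16 above and 3 below the others in both batch 2 libraries, and summed to 789 and 808 CPM in batch 2 against 780.2 to 907 CPM in the others. The 3 below were maco-1, snb-1 and unc-11. Their means in batch 2 were 174, 142 and 106 CPM, so these 3 weigh heavily in the sum. Pharynx and sperm markers had medians of 1.47 and 1.58, with 4 of 5 and 6 of 9 above in both batch 2 libraries. Intestine, body wall muscle and hypodermis markers had medians of 0.45, 0.35 and 0.53, with 5 of 7, 5 of 9 and 3 of 5 above and 0 below. Their part was not tested either.

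In 13 of the 36 members both batch 2 libraries lay above the other 4, where 34.6% of all tested genes did, and in 7 they lay below, where 31.1% did. The share above, 36.1%, was near that of all genes. Of members outside the calls, gpb-2 was at 16.1 ± 1.59, 12.9 ± 1.56 and 10.8 ± 0.163 CPM in batches 2, 3 and 4 (edgeR adjusted p = 0.0558). egl-10 was at 32.2 ± 0.811, 26.7 ± 0.414 and 25.4 ± 3.00 CPM (edgeR adjusted p = 0.0585). Both were outside the threshold in the test of the 3 batches together. Here too each SD is over the 2 libraries of a batch, 1 per treatment. Calls between batches fell without the batch 2 pair, for the members as for all genes. Without that pair, 0 of 35 members and 356 genes in all differed between batches 3 and 4. That fit also had fewer libraries, and whether the calls rested on batch 2 was not tested. The 3 batches together gave 6721 genes, so this 0 is not particular to the members. Leaving out the batch 4 library of either treatment, empty vector or gtr-1 RNAi, left 2 of 37 members called in each case. When a pair or library was left out, 356 to 8036 of all genes differed between batches.

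**Figure D3:**
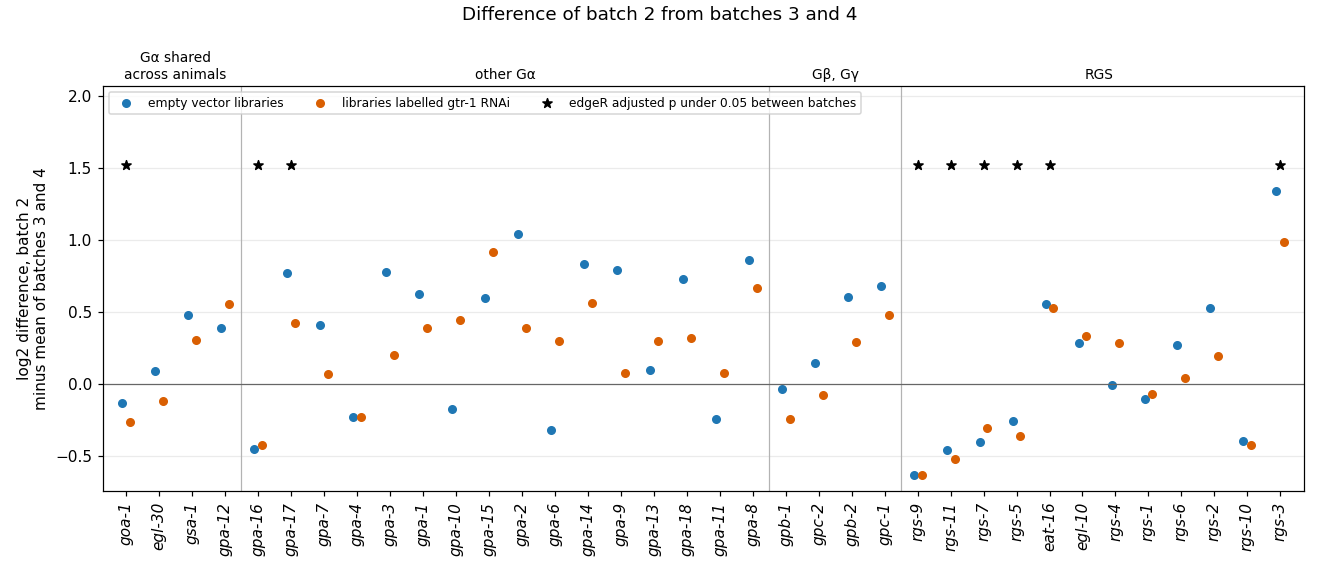
Log2 difference of batch 2 from the mean of batches 3 and 4 for the 36 tested members, drawn separately for the empty vector libraries and for the gtr-1-labelled ones, with stars at an edgeR adjusted p under 0.05 for the batches together. In rgs-9, rgs-11, rgs-7, rgs-5, gpa-16 and goa-1 both points lie below 0, and in rgs-3, eat-16 and gpa-17 both lie above.

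The genes are spread over all chromosomes, 12 of them on X, 9 on I, 8 on V, 4 on II and 3 each on III and IV. The closest members with counts, rgs-10 and rgs-11, follow each other on the plus strand of X with 409 bases between them. Their levels were far apart all the same, 1.13 ± 0.233 RPKM for rgs-10 and 17.2 ± 3.08 RPKM for rgs-11 on the empty vector (SD, n = 3). Both had lower levels in batch 2, at -0.41 and -0.49 on the log2 scale. The test of the 3 batches together called rgs-11 and not rgs-10. gpa-8 and gpa-9, the other close neighbours with counts, lie 4992 bases apart on V and were at 0.160 ± 0.0735 and 0.354 ± 0.124 RPKM. Exons of 15 members overlap those of another gene. The largest overlaps are on the opposite strand, 36.8% of the exon length of gpa-9 with F56H9.8 and 18.9% of that of gpa-1 with T19C4.5, so the counts of these genes are less certain.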

How the data were processed

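Messenger RNA captured on beads from pooled whole worms went into 6 KAPA Stranded libraries, per the labels' protocols. The submitters' processing notes list the build WBcel235, HTSeq 2.01 and DESeq2 1.36.0, with TopHat2 2.1.1 and cutadapt 2.10. The settings, such as whether counting used strand, are not given in the sources used here. Per the file headers, the authors' deposited table holds whole-number counts per gene, the same counts divided by a size factor (a normalized signal) and a batch-corrected score. Results here come from the deposited counts; the authors' other values were not tested.

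Groups came from the titles and batches from the labels. edgeR 4.0.16 in R 4.3.3 was run on all genes: filterByExpr (minimum count 10), TMM factors, and the quasi-likelihood test with the batch as a block, leaving 2 residual degrees of freedom, plus 3.16 prior degrees of freedom. P-values were adjusted by Benjamini-Hochberg over 15519 genes, with a threshold of 0.05. Standard errors were taken as the fitted log2 change divided by the root of its F value; differences of single pairs and batches are of log2 CPM with a prior count of 2. Exon lengths and coordinates are from Ensembl release 115 of WBcel235, in which 39 of 39 members were found by ID.

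The pairing comes from the batch labels; over genes, which are no independent replicates, same-batch libraries deviated together from their group means (r of 0.71 for batch 2, 0.47 for batch 3, 0.66 for batch 4). Between batches r ran from -0.71 to 0.52, and the highest, empty vector batch 3 with gtr-1 RNAi batch 4, exceeded the same-batch value of batch 3. Libraries of a group differed beyond sampling noise (chi-square per degree of freedom at least 23.4). The members, the lists and the tests were chosen with earlier results of these data known. Values in every library are given for 10 members with roles shared across animals, the 6 with the smallest p each way and the 6 with the smallest p between batches. Of the other pathway genes, odr-3 and the 4 with the smallest p each way are named. Alternatives were no block, other filters, DESeq2 size factors, DESeq2 1.42.0, and leaving out each pair and library; library totals were added after seeing the data.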

Additional observations from a re-analysis of the deposited data

How the results depend on the processing

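The number of members called for treatment stayed at 0 without the replicate block, without a filter, at a minimum count of 50, with DESeq2 size factors, in the DESeq2 Wald test and with library totals alone, and was 0 to 1 when a pair or a library was left out. The other pathway genes stayed at 0 throughout these fits. At an unadjusted p under 0.05 the members numbered 0 to 3 when a pair or library was left out, 1 at a minimum count of 50 and 2 with totals. The same fits gave 848 to 3131, 1568 and 2402 of all genes at that threshold. Over all genes, 14 were called with the block, 1 without the replicate block, 165 without a filter, 6 at a minimum count of 50, 201 with DESeq2 size factors, 341 in DESeq2 and 5 with totals, and 0 to 1165 when a pair or library was left out. Members that differed between batches were 7 to 9 under the other settings and 0 to 9 in the leave-outs, where all genes numbered 6051 to 7253 and 356 to 8036. gtr-1 stayed between 0.050 and 0.27 in the leave-outs.

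Of the named members, fold changes near 0 changed sign: gpb-2 (-0.010 without the replicate block), rgs-7 (0.00021 without a filter and 0.018 at a minimum count of 50), goa-1 (0.016) and gpa-16 (0.0087) at a minimum count of 50, and gpb-1 (-0.0096), gpb-2 (-0.024) and gpc-2 (-0.014) with totals; the cause was not tested. When a pair or library was left out, the log2 change ran from -0.059 to 0.046 for goa-1, -0.12 to 0.043 for gpa-12, -0.059 to 0.085 for gpa-16, -0.13 to 0.20 for gpa-7, -0.030 to 0.090 for gpb-1, -0.12 to 0.11 for gpb-2, -0.19 to 0.25 for gpc-1, -0.037 to 0.090 for gpc-2, -0.069 to 0.10 for gsa-1, -0.066 to 0.13 for rgs-7 and -0.39 to 0.17 for odr-3. With the longest transcript in place of all exons, the order of levels per length moved by up to 4 ranks. Depth limits the low gpa genes most, whose intervals are wide.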
